A study of Mus musculus with 9 samples.

Results

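The genes described here are 10 genes of testicular steroid production: Star, Cyp11a1, Cyp17a1, Hsd3b1, Hsd3b6, Hsd17b3, Insl3, Lhcgr, Nr5a1 and Scarb1. They were found in the deposited expression table by their coordinates in the mouse build GRCm38, and not by the gene names printed in the table. The 10 genes fell on 9 of the 54913 loci used, a locus being one transcribed interval with one value per library. A separate locus was found for 7 of them, and the other 3 lay in one shared with another protein-coding gene.

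RNA was sequenced from 9 libraries in 3 groups of 3, all from one mouse strain with 2 engineered alleles. These are Gt(ROSA)26Sortm1(rtTA*M2)Jae, which makes a doxycycline-dependent activator, and Col1a1tm3(tetO-Pou5f1,-Sox2,-Klf4,-Myc)Jae, which that activator switches on to make the reprogramming factors. SSC were primary spermatogonial stem cells at passage 0, taken from testes of 6-day-old pups by enzymatic digestion and differential plating and then enriched on magnetic beads for the surface receptor Gfra1. SSCiPSC were induced pluripotent stem cells made from SSC, and fiPSC were induced pluripotent stem cells made from fetal fibroblasts. Both were lines grown from single picked colonies in medium with LIF, a cytokine that maintains pluripotent cells, and were enriched for the surface antigen SSEA1 before RNA extraction. They are given as passages 10 to 11 in the labels and as later passages in the study's methods. The labels also list doxycycline in the medium, whereas by the methods the drug had been withdrawn step by step before either of these passages. A bead-enriched fraction can hold cells of other types. The study calls the libraries biological samples, but the sources used here do not say whether replicates came from separate animals or lines, so the p-values measure only the spread between these libraries, which may be technical.

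Leydig cells lie between the seminiferous tubules, outside the compartment that holds spermatogonia, and make androgen from cholesterol. Luteinising hormone acts on its receptor and raises cyclic AMP, cholesterol is carried into the mitochondrion, and a chain of dehydrogenases and cytochrome P450 enzymes turns it into testosterone. Pups of this age carry fetal Leydig cells and the precursors of the adult population. In bulk RNA, fewer cells of a type and less RNA per cell cannot be told apart.

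The SSC libraries were much shallower than the others. The FPKM values (fragments per kilobase of transcript per 1000000 mapped fragments) move in steps of whole fragments, and these steps gave estimated depths of 1.77, 4.62 and 1.38 times 1000000 fragments for SSC replicates 1, 2 and 3. The same estimate was 15.8, 13.7 and 15.0 times 1000000 for SSCiPSC and 13.3, 17.6 and 15.4 times 1000000 for fiPSC. A value of 0 in an iPSC library is therefore a tighter limit than a 0 in an SSC library. For Cyp17a1, the 3 fragments that a count of 0 allows correspond, over its exons, to 0.132 FPKM in the SSCiPSC library with the highest limit, 0.137 FPKM in such a fiPSC library and 1.31 FPKM in such an SSC library, covering counting error only.

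The position of each gene decides what its value measures, and 3 genes could not be separated from neighbours. Hsd3b1 (chr3:98852194-98859794, minus strand) and Hsd3b6 (chr3:98805504-98814443, minus strand) lay in a single locus, chr3:98742671-98858250, that also held the near-identical family member Hsd3b3. That locus therefore gives one value for the cluster. Insl3 (chr8:71689214-71690575, plus strand) lies inside the annotated interval of Jak3, which encodes a cytokine receptor kinase, and both were quantified as chr8:71658604-71690762. The first 74.5% of Star (chr8:25806555-25815982, plus strand, 7 exons) was fused with its upstream neighbour Lsm1, which encodes an RNA decay factor, in a locus that was not used as a measure of Star.

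**Figure D1:**
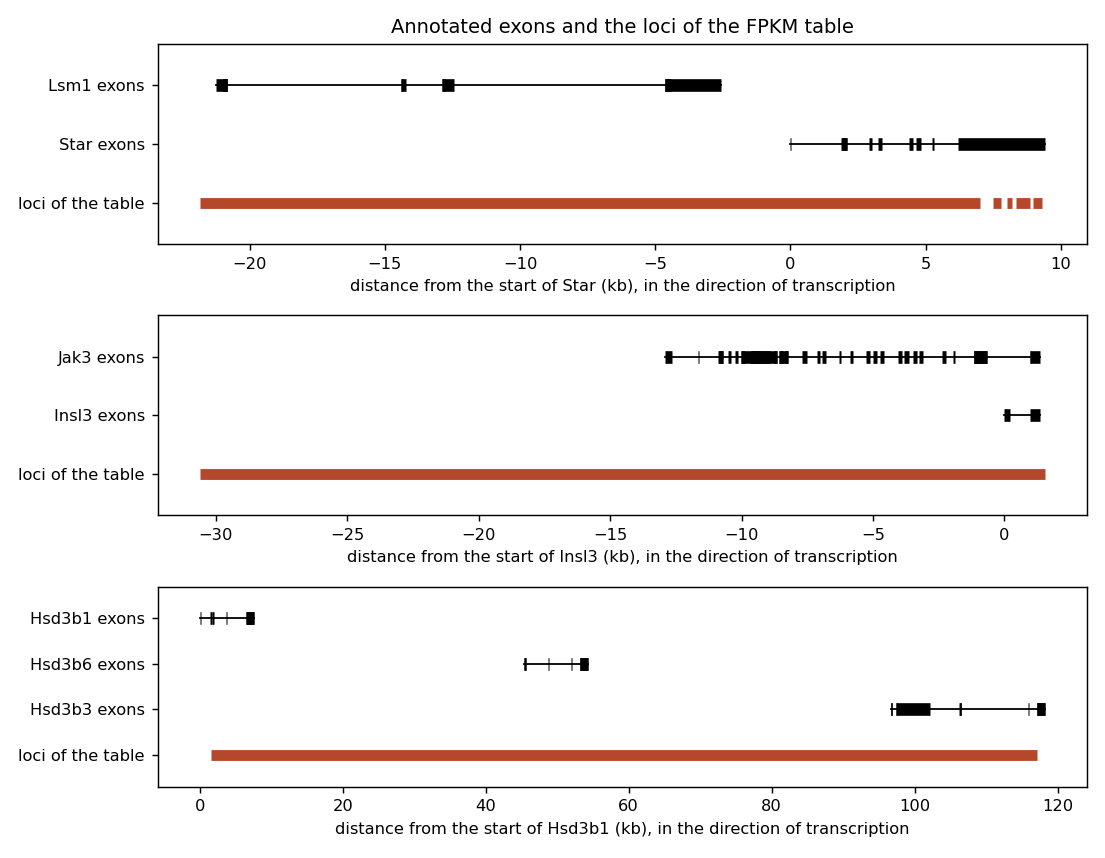
The map shows annotated exons of all transcripts (black boxes) and the loci of the expression table (red bars) around Star, Insl3 and Hsd3b1, with distance from each gene's start in kilobases on the horizontal axis. One locus covers Lsm1 and most of Star and 4 short ones lie in the last exon of Star, one covers both Jak3 and Insl3, and one covers Hsd3b1, Hsd3b6 and Hsd3b3.

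The start regions of 4 genes are shown because Hsd3b1, Hsd3b6 and Insl3 could not be separated from their neighbours in the table and Cyp11a1 opens the pathway. They are the 150 bases before the RefSeq start in GRCm38.p6, written 5′ to 3′ on the strand of the gene: chr9:58014802-58014951 (plus) for Cyp11a1, chr3:98859795-98859944 (minus) for Hsd3b1, chr3:98814444-98814593 (minus) for Hsd3b6 and chr8:71689102-71689251 (plus) for Insl3. Capitals mark the letters AGATAA, a motif bound by Gata factors, or TTATCT, its reverse complement.
Cyp11a1: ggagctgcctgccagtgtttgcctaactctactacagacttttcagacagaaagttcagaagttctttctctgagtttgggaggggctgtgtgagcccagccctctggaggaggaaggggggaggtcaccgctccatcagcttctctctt
Hsd3b1: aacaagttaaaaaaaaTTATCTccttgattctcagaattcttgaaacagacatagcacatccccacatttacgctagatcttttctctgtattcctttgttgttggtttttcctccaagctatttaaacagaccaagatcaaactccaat
Hsd3b6: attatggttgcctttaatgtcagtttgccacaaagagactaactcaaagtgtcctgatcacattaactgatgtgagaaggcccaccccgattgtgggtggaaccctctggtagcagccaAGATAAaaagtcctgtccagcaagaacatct
Insl3: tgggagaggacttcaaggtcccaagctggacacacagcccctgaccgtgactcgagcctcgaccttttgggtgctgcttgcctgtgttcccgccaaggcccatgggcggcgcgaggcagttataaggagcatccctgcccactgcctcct
The RefSeq table used here held 7 start regions of 6 of the 10 genes (Hsd3b1, Hsd3b6, Insl3, Hsd17b3, Lhcgr and, with 2 starts, Cyp11a1). Each was searched on both strands over 250 bases before and 50 after the start. AGATAA was found in 2 of the 7, starting 31 bases before the start of Hsd3b6 on its own strand and 134 bases before that of Hsd3b1 on the other, and in 11.2% of all 32851 RefSeq start regions. AAGGTCA and AAGGCCA, 2 forms of the sequence bound by the Nr5a1 receptor, were in none of the 7, and in 4.72% and 6.20% of all regions. A match is a string of letters and not a binding site, and no match says nothing of the factor.

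Together the 9 loci held a far larger share of the signal in SSC than in either kind of iPSC. They held 0.128%, 0.0848% and 0.158% of the summed FPKM in SSC replicates 1, 2 and 3. In the 6 iPSC libraries the share ran from 0.00326% to 0.00577%. The Star locus is very short, which inflates its value, and without it the SSC shares were 0.0419%, 0.0371% and 0.0705%. With the locus that covers the most of each gene in place of the one with the highest mean, they were 0.0513%, 0.0402% and 0.0869%. The lowest SSC library stood above the highest iPSC library in all 3 cases.

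**Figure D2:**
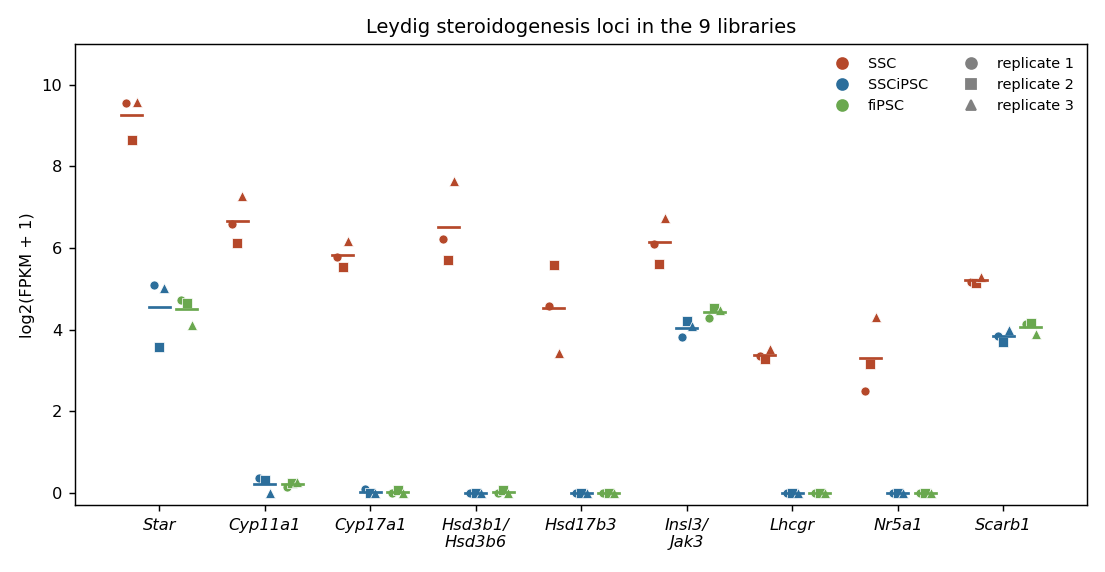
Points give log2(FPKM + 1) of each of the 9 loci in each library, with colour for the group, shape for the replicate number and a bar for the mean of 3. The 3 SSC points stand above all 6 iPSC points at every locus, and the iPSC points lie at or near 0 for all but Star, the Insl3 and Jak3 locus and Scarb1.

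Each comparison was tested with limma on log2(FPKM + 1), and loci with a Benjamini-Hochberg adjusted p below 0.05 were called. All 9 loci were called higher in SSC than in SSCiPSC, where 24.1% of the 36544 loci tested were called in that direction. All 9 were also called higher in SSC than in fiPSC, against 23.7% of 38007 loci. Both comparisons use the same SSC libraries, so the second is not a separate test of SSC. At 6 of the 9 loci (Cyp11a1, Cyp17a1, the Hsd3b cluster, Hsd17b3, Lhcgr and Nr5a1) no iPSC library reached 1 FPKM, so they passed the filter on low values only through SSC and had to differ. Their counts are given as a description. At every locus the groups did not overlap, as at 28.7% and 28.5% of all loci tested with SSC on the high side. An exact permutation test gives 0.1 for such a locus, the smallest two-sided p that 3 against 3 allows.

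The entry of cholesterol into the pathway is represented by Scarb1 and Star. Scarb1 encodes the cell-surface receptor that takes up cholesterol from high-density lipoprotein and is used in many tissues. Its locus (chr5:125277002-125341214, minus strand) covered the whole gene. It had 34.9, 34.6 and 38.5 FPKM in SSC replicates 1, 2 and 3, 13.3, 12.0 and 14.9 FPKM in SSCiPSC, and 16.8, 17.0 and 13.8 FPKM in fiPSC. The 3 SSC values were nearly equal and stood above every iPSC value. The mean was 2.69 times that of SSCiPSC (difference 1.37, SE 0.15, on the log2(FPKM + 1) scale, limma adjusted p = 0.00054) and 2.27 times that of fiPSC (1.14, SE 0.13, adjusted p = 0.00062). It was the smallest difference of the 9 loci in both comparisons.

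Star encodes the protein that carries cholesterol to the inner mitochondrial membrane, the regulated step of steroid production. Its 4 separate loci all lay in the 3′ untranslated part of exon 7 and had no strand. The one with the highest mean (chr8:25814587-25814743, 157 bp) had 745, 401 and 759 FPKM in SSC, 33.1, 11.0 and 31.7 in SSCiPSC, and 25.5, 24.3 and 16.4 in fiPSC. The groups were far apart, although a locus this short rests on few fragments, about 20 to 34 per SSC library and 3 to 11 per iPSC library. The SSC mean was 25.1 times that of SSCiPSC (difference 4.69, SE 0.46, limma adjusted p = 0.00043) and 28.8 times that of fiPSC (4.75, SE 0.30, adjusted p = 0.00012). Because of its length this value is not compared with the level of another gene.

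Along the last exon of Star the size of the difference was not even. The locus farthest from the gene end (chr8:25814034-25814339, 306 bp) had 168, 77.2 and 239 FPKM in SSC against 9.69, 9.34 and 9.52 in SSCiPSC and 10.4, 10.4 and 8.74 in fiPSC. The 523 bp locus (chr8:25814892-25815414) had 93.0, 44.5 and 131 FPKM in SSC against 5.99 to 10.8 in iPSC, with a difference of 3.27 (SE 0.39) from SSCiPSC. The locus nearest the gene end (chr8:25815516-25815851, 336 bp) had 15.9, 12.1 and 28.5 FPKM in SSC, 11.3, 7.45 and 9.77 in SSCiPSC and 18.2, 10.6 and 10.2 in fiPSC. There SSC and fiPSC overlapped, and neither comparison passed the limma test (difference 0.85, SE 0.33, adjusted p = 0.072 against SSCiPSC, and 0.46, SE 0.36, adjusted p = 0.33 against fiPSC). The 306 bp locus was 10.6, 6.36 and 8.40 times the 336 bp locus in SSC, but 0.861, 1.25 and 0.974 times in SSCiPSC and 0.571, 0.984 and 0.858 times in fiPSC. These ratios set loci of similar length within a library side by side, and the SSC range lay above the iPSC range. In SSC the 336 bp locus rests on few fragments, about 5, 10 and 7 in replicates 1, 2 and 3, against 19 to 45 per iPSC library. The SSC ratios are therefore rough. The loci of these ratios were chosen after their values were seen, and the ratios are given without a test.

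**Figure D3:**
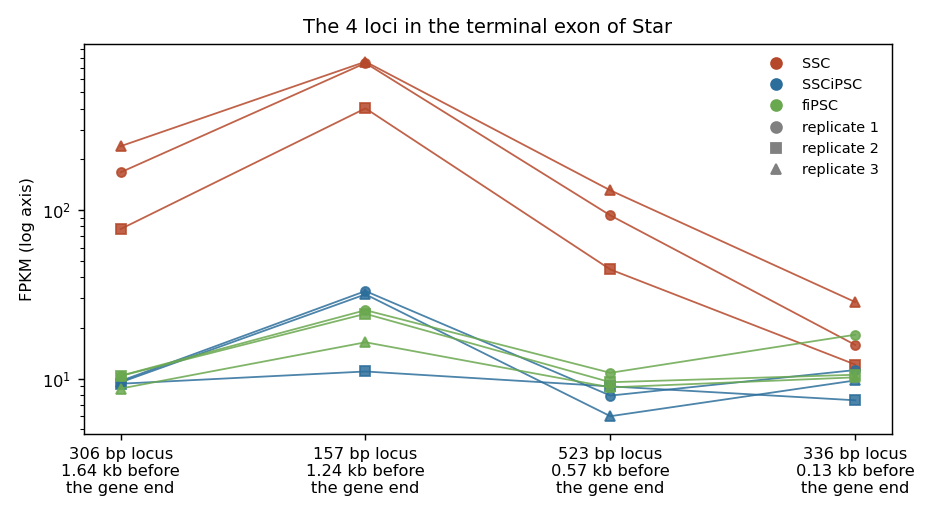
FPKM on a log axis at the 4 loci in the last exon of Star, in order along the gene, with 1 line per library. The SSC lines stand apart at the first 3 loci and come down to 12.1 to 28.5 FPKM at the locus nearest the gene end, where the iPSC lines lie between 7.45 and 18.2 FPKM.

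The enzymes that build testosterone were next to undetected in iPSC. Cyp11a1, the mitochondrial side-chain cleavage enzyme that makes pregnenolone, was read from chr9:58014441-58027023 (plus strand), which held all 9 exons of its principal transcript. It had 96.1, 69.4 and 155 FPKM in SSC, 0.291, 0.251 and 0 in SSCiPSC and 0.118, 0.196 and 0.202 in fiPSC. Replicate 3 was the highest SSC library and replicate 2 the lowest, and no iPSC library reached 1 FPKM. The difference was 6.44 (SE 0.32) from SSCiPSC and 6.45 (SE 0.30) from fiPSC, given without p because the locus passed the filter only through SSC. Among 10298 genes with a stranded locus of their own, Cyp11a1 stood above 97.5%, 94.6% and 98.9% in SSC replicates 1, 2 and 3.

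Cyp17a1 (chr19:46667169-46673227, minus strand, all 8 exons), the hydroxylase and lyase that leads to androgens, had 54.4, 45.5 and 71.0 FPKM in SSC. In SSCiPSC it had 0.0664, 0 and 0 FPKM, and in fiPSC 0, 0.0596 and 0. The groups were widely separated, and the SSC order of the libraries was that of Cyp11a1. The difference was 5.80 (SE 0.23) from SSCiPSC and 5.81 (SE 0.21) from fiPSC. As for Cyp11a1, the filter was passed only through SSC and no p is given.

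The Hsd3b cluster holds 3β-hydroxysteroid dehydrogenases, which turn pregnenolone into progesterone and the corresponding androgen precursors. In mouse, Hsd3b1 is the form of gonads and adrenal and Hsd3b6 that of adult Leydig cells. Their common locus had 74.2, 51.0 and 200.4 FPKM in SSC, 0 in all 3 SSCiPSC libraries and 0, 0.0549 and 0 in fiPSC. SSC replicate 3 stood well above the other two. The SSC mean of 109 FPKM was at least 738-fold higher than SSCiPSC, taking 3 fragments over the exons of Hsd3b1 as the limit of a library at 0. Without SSC replicate 3 the mean was 62.6 FPKM and the bound 426-fold. Because the locus passed the filter only through SSC, the difference is given without p. It was 6.53 (SE 0.49) from SSCiPSC and 6.50 (SE 0.49) from fiPSC. How it divides among Hsd3b1, Hsd3b6 and Hsd3b3 cannot be read from the table.

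Hsd17b3, the enzyme that makes testosterone from androstenedione, had a short and a long locus with different profiles. The short one, with the highest mean (chr13:64058279-64058506, 228 bp, no strand, the 3′ untranslated part of exon 11), had 23.1, 47.2 and 9.87 FPKM in SSC and 0 in every iPSC library. These values stand for about 3, 17 and 1 fragments, so those of replicates 1 and 3 rest on very few. The stranded locus, covering 99.0% of the gene (chr13:64058566-64089400, minus strand), had 11.5, 30.5 and 32.2 FPKM in SSC, 0.183, 0.491 and 0 in SSCiPSC and 0.0726, 0.0547 and 0.313 in fiPSC. SSC replicate 3 was thus the lowest of the 3 at the short locus and the highest at the long one, and SSC did not overlap iPSC at either, which at the short locus rests on a single fragment in replicate 3. The same long interval is listed again with no strand, at 0, 7.99 and 4.86 FPKM in SSC and 0 in every iPSC library, and was not tested. On the log2(FPKM + 1) scale the difference at the long locus was 4.28 (SE 0.43) from SSCiPSC and 4.37 (SE 0.42) from fiPSC, and at the short one 4.54 (SE 0.53) from each. Both loci passed the filter only through SSC, so these are given as a description, without p.

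Among the receptor and regulator of the pathway, levels were lower, and the iPSC values were at 0 or, at one Nr5a1 locus in fiPSC, close to it. Lhcgr, the receptor of luteinising hormone, was read from chr17:88742904-88791972 (minus strand), with 9.30, 8.77 and 10.5 FPKM in SSC and 0 in all 6 iPSC libraries. The SSC libraries differed little, and the mean of 9.52 FPKM was at least 45.3-fold higher than SSCiPSC and at least 43.7-fold higher than fiPSC, on the limit of 3 fragments over the exon bases in the locus. The difference was 3.39 in both comparisons (SE 0.23 and 0.20), without p because the locus passed the filter only through SSC. A locus with no strand in the last exon (chr17:88741827-88742820) had 3.39, 5.95 and 15.6 FPKM in SSC and was also at 0 in all iPSC libraries. In rank, Lhcgr stood near the middle of the genes in SSC, above 50.4%, 46.9% and 53.3% of them in replicates 1, 2 and 3.

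Nr5a1 encodes steroidogenic factor 1, the nuclear receptor that drives most genes of this pathway and is also made by Sertoli cells. Its exons 1 to 4 (chr2:38707970-38714534, minus strand) had 4.67, 7.90 and 18.8 FPKM in SSC, and its exons 5 to 7 (chr2:38692657-38702180) had 4.69, 6.33 and 7.98. The first locus was at 0 in all 6 iPSC libraries, and the other was at 0 in SSCiPSC and had 0.0415, 0.0313 and 0.0716 FPKM in fiPSC. Replicate 3 was the highest and replicate 1 the lowest SSC library at both, with a wider spread at the first exons. The SSC mean of the first locus, 10.4 FPKM, was at least 43.2-fold higher than SSCiPSC and at least 41.7-fold higher than fiPSC. Without SSC replicate 3 the mean was 6.29 FPKM and the bounds 26.0-fold and 25.1-fold. The first locus passed the filter only through SSC, so its differences, 3.32 (SE 0.47) in both comparisons, are given without p. The antisense gene Nr5a1os overlaps the first exons on the plus strand, and whether the authors' counting used strand is not given in the sources used here, so reads of the pair cannot be told apart.

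Insl3, the insulin-like hormone of Leydig cells that acts in testis descent, could be read only with Jak3. The common locus had 67.5, 47.9 and 106 FPKM in SSC, 13.1, 17.7 and 16.0 in SSCiPSC and 18.7, 22.3 and 21.4 in fiPSC. SSC stood above all iPSC libraries, which here were far from 0. The table lists the same interval a second time in its minus-strand block, opposite to Insl3, and that entry ran the other way, at 0 in all 3 SSC libraries and 5.86 to 9.64 FPKM in iPSC. It was not used as a measure of Insl3, and having passed the filter only through iPSC it had to differ. The SSC mean was 4.75 times that of SSCiPSC (difference 2.11, SE 0.30, limma adjusted p = 0.0015) and 3.56 times that of fiPSC (1.71, SE 0.28, adjusted p = 0.0032). No part of the value can be assigned to either gene.

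Between the 2 kinds of iPSC, 3 of the 9 loci passed the filter, and limma called 0 of them, as against 0.0678% of the 33948 loci tested. At an unadjusted p below 0.05 it was 1 of 3, the Insl3 and Jak3 locus, against 11.7% of all loci. That locus was 0.40 higher in fiPSC (SE 0.15, limma adjusted p = 0.37), with groups that did not overlap, as at 9.41% of all loci with fiPSC on the high side. Scarb1 was 0.23 higher in fiPSC (SE 0.14, adjusted p = 0.58), and Star differed by -0.07 (SE 0.41, adjusted p = 0.97). The other 6 loci were under 1 FPKM in all 6 libraries.

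Within SSC the members largely kept one order of the libraries. Replicate 3 was the highest of the 3 libraries at 8 of the 9 loci and replicate 2 the lowest at 7, with both true at 7. The 7 include near ties, since replicate 1 was only 1.01 times replicate 2 at Scarb1 and 1.06 times at Lhcgr. Over all 36544 loci tested, both were true at 13.7%. The ratio of replicate 3 to replicate 2 was 3.93 for the Hsd3b cluster, 2.37 for Nr5a1, 2.23 for Cyp11a1, 2.22 for the Insl3 and Jak3 locus, 1.89 for Star, 1.56 for Cyp17a1, 1.19 for Lhcgr, 1.11 for Scarb1 and 0.209 for the short Hsd17b3 locus, where it sets about 1 fragment against 17. At the long Hsd17b3 locus it was 1.05, with replicate 3 the highest and replicate 1 the lowest. The median ratio of 8002 loci with at least 10 FPKM in every SSC library was 0.937. Replicate 3 is the shallowest of the libraries and replicate 2 the deepest of the SSC libraries, and the part of depth in this order was not tested.

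Marker genes of other testis cells were present in the same SSC libraries. Gfra1, the receptor used in the enrichment, had 37.7, 34.1 and 23.9 FPKM in SSC and its partner Ret 51.0, 52.8 and 40.3 FPKM, with at most 0.171 and 0.592 FPKM in iPSC. The germ line list (12 of 14 genes with a locus of their own, Dazl the most abundant in SSC) summed to 688, 806 and 562 FPKM in SSC, in replicate order, against 325 to 612 FPKM in iPSC. Of its 12 tested genes, 8 were called higher and 4 lower in SSC in both comparisons, beside 24.1% and 23.7% of all loci called higher and 26.2% and 28% called lower. Of the 8, 4 (Gfra1, Ret, Zbtb16 and Sohlh1) passed the filter only through SSC. The 4 lower genes were Etv5, Kit, Sall4 and Lin28a, of which Sall4 and Lin28a are also used by pluripotent cells, and with quantile normalization 2 were called lower in each comparison. Etv5, a transcription factor of spermatogonial self-renewal, had 38.8, 30.7 and 28.9 FPKM in SSC against 94.0 to 143 FPKM in iPSC. The Sertoli cell list (10 of 11, Clu the most abundant) summed to 1470, 1494 and 1201 FPKM in SSC and to 188 to 328 FPKM in iPSC. Most of the iPSC sum was Rhox5, a homeobox gene, with 162 to 296 FPKM in iPSC and 1.03 to 1.98 FPKM in SSC, opposite to the list, while Clu had 2.87 to 6.91 FPKM in iPSC and Sox9, Fshr, Cst12 and Defb19 were at 0 there. Inhbb, an inhibin and activin subunit, had 13.3 to 15.9 FPKM in SSC against 13.5 to 25.0 FPKM in iPSC and was not called. With median-ratio scaling 2 genes of the Sertoli list, Inhbb among them, were called lower than in SSCiPSC, in place of 1. Both SSC sums were lowest in replicate 3, where most of the Leydig loci were highest, and none of their genes with a locus of their own was at 0 in SSC.

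The macrophage list (7 of 8 genes, C1qa the most abundant) summed to 56.9, 20.7 and 172 FPKM in SSC, against 9.06 to 14.7 FPKM in iPSC. In SSC it followed the order of Cyp11a1 and Cyp17a1, with replicate 3 at 8.34 times replicate 2. Most of the iPSC sum was Cd68, with 7.65 to 13.7 FPKM there and 7.53, 3.51 and 15.8 FPKM in SSC. The peritubular myoid list (5 of 7, Acta2 the most abundant) summed to 116, 101 and 84.1 FPKM in SSC and to 10.3 to 14.3 FPKM in iPSC. Not all of its genes were higher in SSC. Des leaned the other way, with 1.94 to 4.62 FPKM in SSC and 3.59 to 8.86 FPKM in iPSC. Cnn1 overlapped, with 0.762 to 2.39 FPKM in SSC and 0.717 to 2.12 FPKM in iPSC. The endothelial list (6 of 6, Pecam1 the most abundant) summed to 117, 56.8 and 96.8 FPKM in SSC and to 83.4 to 127 FPKM in iPSC, ranges that overlap. Pecam1, which pluripotent cells also make, had 26.6 to 54.6 FPKM in SSC and 79.6 to 125 FPKM in iPSC, while Cdh5, Kdr, Tie1 and Emcn were under 1 FPKM in every iPSC library and at least 1 FPKM in every SSC library. No gene of these 3 lists with a locus of its own was at 0 in SSC. Of the pluripotent cell list (5 of 8 with a locus of their own, the others in shared loci), Nanog and Tdgf1 were at 0 in all SSC libraries and the sum was 12.2 to 17.1 FPKM, against 1826 to 2781 FPKM in iPSC. The part that these cell types have in the values of the Leydig loci was not tested.

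**Figure D4:**
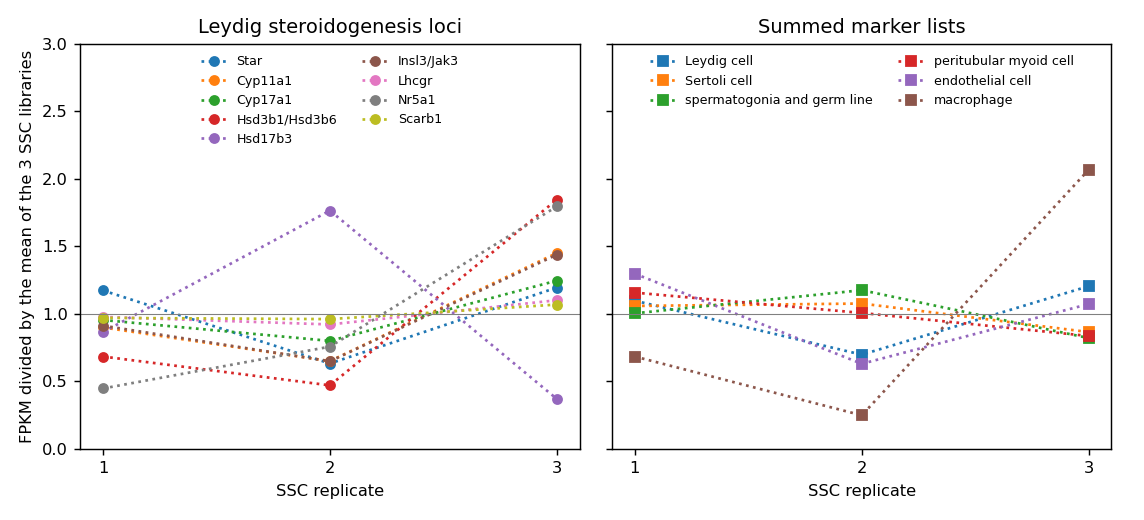
Values of the 3 SSC libraries divided by their mean, for the 9 Leydig loci (left) and the summed marker lists (right). Most Leydig loci and the macrophage list are highest in replicate 3, while the Sertoli, germ line and peritubular sums are lowest there, and the short Hsd17b3 locus, with about 3, 17 and 1 fragments, is lowest there too.

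The adrenal cortex uses the same first enzymes, so its own markers were read as well. Of 6 genes, Mrap alone had a locus of its own, with 18.9, 10.1 and 19.97 FPKM in SSC, and its highest iPSC value was 0.0690. Mrap encodes an accessory protein of the corticotropin receptor. Mc2r and Akr1b7 had no locus, and Cyp21a1 lay in a locus with C4b, Stk19 and Skiv2l. The enzymes of the last steps of adrenal steroids, Cyp11b1 and Cyp11b2, shared a locus with 0.233, 0.496 and 0.664 FPKM in SSC.

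The steps around the pathway were read from lists of genes found in the same way, and Fdx1 stood out among the proteins that feed electrons to P450 enzymes. Of these 5 genes, 3 were called higher and 2 lower in SSC in both comparisons, with medians of 0.61 against SSCiPSC and 0.80 against fiPSC. Over all loci the medians were -0.11 and -0.17, with 24.1% and 23.7% called higher and 26.2% and 28% called lower. All 5 genes reached 1 FPKM in iPSC, whereas in other lists some genes, like 6 of the 9 loci above, passed the filter only through SSC and had to differ. Fdx1, the ferredoxin that serves Cyp11a1 in the mitochondrion, had 116, 90.2 and 175 FPKM in SSC against 8.21 to 11.9 in iPSC, with no overlap and the library order of Cyp11a1. Its difference was 3.46 (SE 0.26, limma adjusted p = 0.00020) from SSCiPSC and 3.53 (SE 0.26, adjusted p = 0.00018) from fiPSC. Por, the microsomal reductase that serves Cyp17a1, was 1.60 and 1.53 higher, and Fdxr, the reductase of Fdx1, 0.61 and 0.80 higher. With median-ratio scaling 2 genes of the list, in place of 3, were called higher than in SSCiPSC. Cyb5a, the cytochrome that promotes the lyase step of Cyp17a1, had 23.0, 30.5 and 35.3 FPKM in SSC against 80.0 to 108 in iPSC. It was 1.55 and 1.71 lower in SSC, and its reductase Cyb5r3 was 1.08 and 1.15 lower.

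Genes of hormone and cyclic AMP signalling were mostly higher. Of 9 genes tested out of 12, 8 were called higher in SSC in both comparisons and 0 lower (medians 1.87 and 1.81). Over all loci, 24.1% and 23.7% were called higher and 26.2% and 28% lower. Of the 8, 3 passed only through SSC, and of the other 6 tested genes 5 were higher. With median-ratio scaling 7 were called higher in each, and 1 lower against fiPSC. Gnas, the stimulatory G protein that couples the receptor to adenylyl cyclase, had 209, 195 and 276 FPKM in SSC against 44.2 to 77.0 in iPSC (differences 1.87 and 1.81). Prkar2b, a regulatory subunit of protein kinase A, had 33.3, 39.4 and 44.8 FPKM against 1.81 to 4.21 (3.64 and 3.25). Prkaca, the catalytic subunit, had 22.8, 25.9 and 24.4 FPKM against 20.8 to 28.8 and passed neither test. The list also holds genes that other testis cells use as well, such as Amhr2, the receptor of anti-Müllerian hormone.

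Of 9 transcription factors tested out of 11, 7 were called higher and 2 lower in SSC in both comparisons, beside 24.1% and 23.7% of all loci called higher and 26.2% and 28% called lower. Of the 7, Gata4, Gata6, Nr2f2 and Tcf21 passed only through SSC in both comparisons and Wt1 in that with SSCiPSC, so they had to be higher. Of the other genes 2 were higher and 2 lower against SSCiPSC, and 3 and 2 against fiPSC. Gata4, a factor of Leydig and Sertoli cells, had 18.7, 18.1 and 20.2 FPKM in SSC and at most 0.351 in iPSC (differences 4.18 and 4.03). Nr4a1, a nuclear receptor induced by luteinising hormone, had 64.4, 78.0 and 106 FPKM against 11.3 to 20.3 (2.30 from SSCiPSC). Tcf21 (2.83 in both) and Wt1 (4.97 and 4.48), which mark interstitial precursors and Sertoli cells, were also higher. The 2 lower genes were nuclear receptors that pluripotent cells use. Nr0b1, which represses Nr5a1, had 0.953, 3.89 and 3.11 FPKM in SSC against 23.6 to 65.5 in iPSC, and Nr5a2, the closest relative of Nr5a1, had 16.3, 13.3 and 9.93 against 37.6 to 52.4.

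Supply of cholesterol gave a mixed picture. Of 9 tested genes of uptake, storage and transport out of 10, 5 were called higher and 1 lower against SSCiPSC, and 6 and 1 against fiPSC (medians 0.61 and 0.55), beside 24.1% and 23.7% of all loci called higher and 26.2% and 28% called lower. Abca1, the pump that moves cholesterol out of the cell, had 113, 87.5 and 95.9 FPKM in SSC against 2.94 to 4.56 in iPSC (differences 4.45 and 4.46), and Npc2, which carries cholesterol out of lysosomes, was the lower one (-1.30 and -1.32). Stard3, a relative of Star, was 1.28 and 1.06 higher. Tspo, a protein of the outer mitochondrial membrane, had 11.6, 10.4 and 26.9 FPKM against 14.9 to 29.0 and was not called. With median-ratio scaling, which put the medians of all loci at -0.29 and -0.35, 3 genes were called higher in each comparison and 1 lower.

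Cholesterol synthesis depended on the scaling. Of 8 genes tested out of 9, 4 were called higher in SSC than in SSCiPSC and 3 higher than in fiPSC, with small medians of 0.38 and 0.29, beside 24.1% and 23.7% of all loci called higher. With median-ratio scaling 0 were called higher in either comparison and 1 was called lower against fiPSC, and with quantile normalization 8 and 6 were called higher.

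Of 18 other steroid dehydrogenases, reductases and P450 enzymes, 9 had a separate locus and 7 were tested. Of these, 4 were called higher than in SSCiPSC, 5 higher than in fiPSC and 0 lower (medians 0.79 and 0.85). Over all loci, 24.1% and 23.7% were called higher and 26.2% and 28% lower. Akr1c14 and Hsd11b2 passed only through SSC, and of the other 5 genes 2 were higher than in SSCiPSC and 3 higher than in fiPSC. With median-ratio scaling or quantile normalization 1 was called lower than in fiPSC. Akr1c14, a 3α-hydroxysteroid dehydrogenase, had 1.78, 3.41 and 4.56 FPKM in SSC and at most 0.306 in iPSC (differences 1.98 and 1.90). Srd5a1, a 5α-reductase that the immature Leydig lineage uses, had 2.88, 4.05 and 4.73 FPKM against 2.95 to 5.25 and was not called. Cyp19a1, the aromatase that makes estrogen, had no locus.

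Of 9 tested genes of Leydig lineage signalling out of 10, 6 were called higher in both comparisons, with 1 lower against SSCiPSC and 2 against fiPSC, beside 24.1% and 23.7% of all loci called higher and 26.2% and 28% called lower. Dhh passed only through SSC and Gli1 only through iPSC, so both had to differ, and of the other 7 genes 5 were higher in each comparison, 0 lower against SSCiPSC and 1 lower against fiPSC. With median-ratio scaling or quantile normalization 5 of the 9, in place of 6, were called higher. Dhh, the hedgehog ligand that Sertoli cells send to the interstitium, had 14.7, 13.3 and 9.78 FPKM in SSC and at most 0.469 in iPSC (differences 3.65 and 3.46). Pdgfra, the receptor on Leydig precursors, had 7.57, 7.08 and 8.15 FPKM against 0.432 to 1.23 (2.26 and 2.32). Gli1, a transcriptional target of hedgehog, was at 0 in all 3 SSC libraries at a locus with no strand, against 3.77 to 10.6 FPKM in iPSC. Ptch1, the hedgehog receptor, had 11.2, 14.4 and 12.1 FPKM in SSC against 13.1 to 21.1 and was called lower against fiPSC alone (-0.61).

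**Figure D5:**
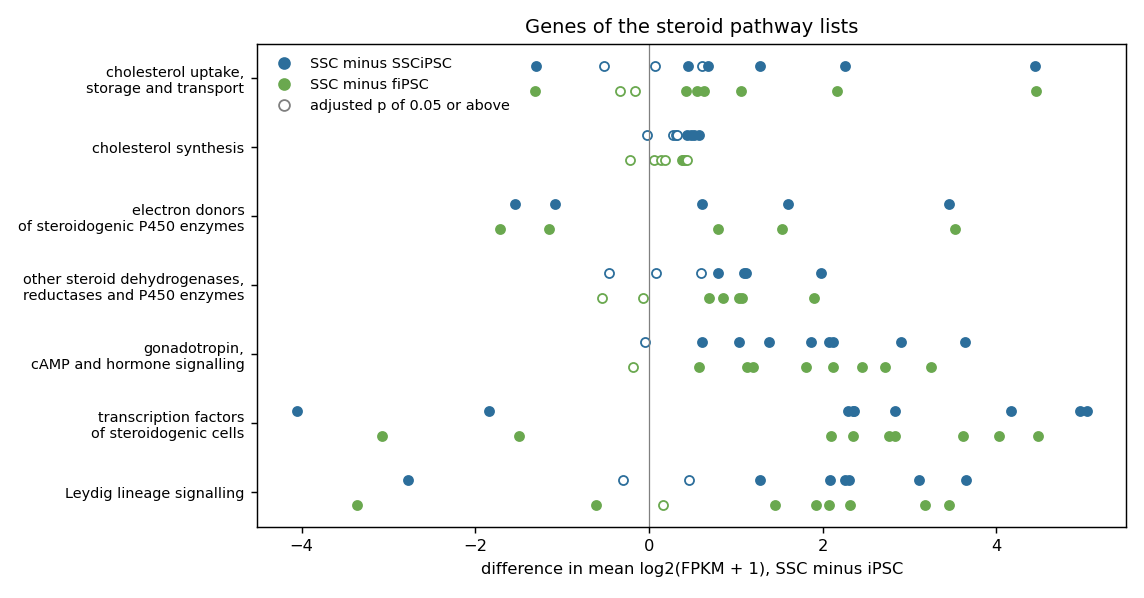
Each point is a gene of a pathway list, placed by its difference in mean log2(FPKM + 1) between SSC and SSCiPSC (blue) or fiPSC (green), and open points did not pass the test. Most signalling genes and transcription factors spread to the right, with Nr0b1, Gli1 and Nr5a2 on the left, while the cholesterol synthesis genes lie within a narrow band near 0.

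The genes whose profile over the 9 libraries was most like the mean profile of the Leydig genes with their own locus were Olfml2b, Igsf11, Mamld1, Smoc2, Clic5, Aldh1a1, Mum1l1, Itgb8, S1pr1 and Nedd9. They were chosen from 5685 genes with a mean of at least 10 FPKM in SSC, each with a Pearson r of 0.999 on log2(FPKM + 1). The points share 1 contrast between SSC and iPSC and the same libraries, so r of this size describes that contrast and carries no p. Aldh1a1, a retinaldehyde dehydrogenase, had 130, 166 and 187 FPKM in SSC and at most 0.0779 in iPSC.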

How the data were processed

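Stranded paired-end libraries were made with an mRNA kit. The labels add that ribosomal RNA was depleted first, which the study's methods do not mention. Per the labels, the submitters' processing notes name Trimmomatic 0.32, TopHat2 2.0.9, Bowtie2 2.1.0, Cufflinks 2.2.1 and Cuffdiff. The authors deposited 1 FPKM value per assembled locus and library, headed as RPKM, without read counts. The notes name build mm9, but the coordinates match GRCm38: 3036 loci had both ends within 300 bp of a GRCm38 protein-coding gene, against 3 and 2 after shifts of 1000000 bp. Of 54914 loci, 1 with a blank value was left out. The table stands in blocks read as plus (8278 loci), minus (8085) and no strand (38550).

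A gene's own locus lay at least 50% inside it (GENCODE vM21) with no other protein-coding gene on it. Where there were several, the one with the highest mean over 9 libraries was used. Each pair of groups was fitted with limma 3.58.1 in R 4.3.3 (lmFit, eBayes with a trend) on log2(FPKM + 1), which understates the change of low genes. The 6 libraries of the pair entered, with loci of at least 1 FPKM in at least 3, Benjamini-Hochberg adjustment and a threshold of 0.05. The fit was tested on simulated data. Tables used Python 3.11.15, pandas 2.3.3, numpy 2.4.6 and scipy 1.17.1, and plots matplotlib 3.10.9. Named genes are the 10 members, the genes of the pathway and marker lists, and the 10 genes most like the members. The members and the lists were chosen with earlier results of these data known. The alternatives were other pseudocounts, filters, scalings, thresholds, loci and fits, the replicate block, and each library left out in turn.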

Additional observations from a re-analysis of the deposited data

How the results depend on the processing

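At the loci used for Star, Scarb1 and Insl3 with Jak3, the direction was kept and both SSC comparisons were called under the other pseudocount, filters, scalings, threshold and fits, the replicate block and each library left out, 45 of 45 fits in each, with limma adjusted p of at most 0.011 and 0.021. The 336 bp locus of Star was called in 1 of 15 such fits against SSCiPSC and in 0 of 15 against fiPSC. The other 6 Leydig loci were called in 89 of 89 fits in each, but they passed the filter only through SSC, so that count says nothing of their stability. Lhcgr was not tested with a mean of at least 5 FPKM. That filter gave 10070 loci called against SSCiPSC and 10528 against fiPSC, in place of 18396 and 19680, with 17141 and 17246 loci tested. Leaving out 1 library gave 14539 to 20238 and 15413 to 22511 calls. For fiPSC against SSCiPSC, 23 loci were called, 9 at an adjusted p below 0.01, 10 without a filter on low values, 10 with a mean of at least 5 FPKM, 11 with all 9 libraries in the fit, and 6 to 20 with 1 library left out. The cause was not tested. Deviations of same-numbered samples correlated by -0.244 to 0.0267, and not every sample correlated best with its own number. These values gave no sign of pairing by replicate number, but with 3 libraries per group they cannot show that the samples were unpaired. With the replicate block 16926, 17546 and 6 loci were called. The Star difference between fiPSC and SSCiPSC, -0.07, turned to 0.12 without fiPSC replicate 3 and to 0.19 and 0.16 without SSCiPSC replicates 1 and 3, with a range of -0.56 to 0.19. The SSC shares of the members were 0.241%, 0.178% and 0.376% of the FPKM of loci named for a gene, and 0.211% in replicate 3 with every member locus summed. With the locus covering the most of each gene, an alternative added after the data were seen, they were 0.0513%, 0.0402% and 0.0869%. With 1.38 to 4.62 times 1000000 fragments, the SSC libraries limit what a low value there shows.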
